A study of Mus musculus with 10 samples.

Results

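The 10 genes described here build the intestinal brush border, and they are Vil1, Pls1, Espn, Eps8, Myo1a, Ezr, Cdhr2, Cdhr5, Ush1c and Myo7b. They were chosen by name, as the 10 rows of the normalized gene count table that carry these symbols, out of 45707 rows in all. Each symbol matched 1 row, and all 10 passed the filter on low values, which asked for 10 normalized counts or more in 5 or more of the mice and kept 14301 genes, the NDI1 transgene among them.

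RNA sequencing was performed on the jejunum of 10 male mice aged 8 to 12 weeks, with 1 library per mouse. The paper states that the males of both genotypes were littermates, but which of these mice shared a litter is not given. The 5 Vil-Cre mice carried the Villin-Cre transgene, in which Cre recombinase is driven by villin regulatory sequence in intestinal epithelial cells. The 5 Vil-Cre:NDI1 mice carried the same transgene and also NDI1, the single-subunit NADH dehydrogenase of yeast, behind a lox-stop-lox sequence at ROSA26. All 10 mice were fasted for 16 to 18 h, received water by gavage and were killed 1 h later. The comparison is therefore between mice with and without the NDI1 allele, all fasted, vehicle-treated and carrying Villin-Cre. By the cross described in the paper, only the Vil-Cre:NDI1 mice carry the altered ROSA26 locus. An effect of that locus and an effect of NDI1 itself cannot be told apart. No mouse without Villin-Cre was analysed here, so any effect of the transgene was shared by both groups and was not measured. NDI1 had 0 reads in 4 Vil-Cre libraries and 1 read in Vil-Cre 3, and it had 1002 to 2659 reads in the Vil-Cre:NDI1 libraries. The libraries held 10145705 to 12371530 reads on genes, and the reads behind a single value of the 10 genes ranged from 2438 for Espn in Vil-Cre 4 to 47666 for Vil1 in Vil-Cre:NDI1 2.

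Enterocytes, the absorptive cells of the villus, carry a dense lawn of microvilli on the face turned to the lumen. Each microvillus holds a core of parallel actin filaments that are bundled by villin, plastin and espin, tied to the membrane by myosin motors and ezrin, and linked to its neighbours at the tip by protocadherins. These proteins are made in large amounts as cells leave the crypt and mature, and Vil1 is used as a marker of the intestinal epithelium and as the source of the Villin-Cre promoter. The deposited values are normalized counts, whole reads divided by a size factor for each library.

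The sequence before the transcription start is shown for Vil1, whose regulatory region drives Cre, and for Cdhr2 and Cdhr5, which varied together across mice. RefSeq windows on GRCm38.p6 were found for 8 of the 10 genes, without Eps8 and Myo7b. The 250 bases before the RefSeq start lie at chr1:74409134-74409383 on the plus strand for Vil1, at chr13:54701213-54701462 on the plus strand for Cdhr2 and at chr7:141276787-141277036 on the minus strand for Cdhr5. Capitals mark matches to the CArG box (the site of serum response factor), to the motifs GTTAAT of HNF1 and CAAAG of HNF4, and to TTTATG of CDX, read on both strands.
Vil1: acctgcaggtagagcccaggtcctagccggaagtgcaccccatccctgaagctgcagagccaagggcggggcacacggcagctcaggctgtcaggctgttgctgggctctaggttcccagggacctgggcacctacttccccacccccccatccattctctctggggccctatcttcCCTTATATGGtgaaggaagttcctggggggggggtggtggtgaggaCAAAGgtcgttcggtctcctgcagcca
Cdhr2: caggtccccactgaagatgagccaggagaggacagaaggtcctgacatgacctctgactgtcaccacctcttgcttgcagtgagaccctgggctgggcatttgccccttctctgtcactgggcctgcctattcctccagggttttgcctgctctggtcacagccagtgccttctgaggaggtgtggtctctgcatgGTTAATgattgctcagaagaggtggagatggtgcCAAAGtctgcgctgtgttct
Cdhr5: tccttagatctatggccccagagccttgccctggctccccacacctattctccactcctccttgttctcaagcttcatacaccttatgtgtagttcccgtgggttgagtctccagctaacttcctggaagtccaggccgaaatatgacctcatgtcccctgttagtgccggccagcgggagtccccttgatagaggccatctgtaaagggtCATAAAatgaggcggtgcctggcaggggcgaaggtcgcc
The Vil1 window held a CArG box that begins 73 bases before the start, and no other of the 8 genes had one, where 1.63% of 32851 RefSeq windows of 250 bases before and 50 after a start did. GTTAAT occurred in 1 of the 8 genes (Cdhr2) and in 7.10% of all windows. CAAAG occurred in 5 of the 8 genes (Vil1, Pls1, Espn, Cdhr2 and Ush1c) and in 53.9% of all windows. TTTATG occurred in Cdhr5 and Espn, where Cdhr5 carries it on the other strand as CATAAA, and in 11.9% of all windows. The GC box GGGCGG occurred in Vil1, Ezr, Espn and Ush1c and in 35.7% of all windows, whereas AGATAA, read by GATA factors, and TATAAA occurred in 0 of the 8 genes and in 11.2% and 13.6% of all windows. The 8 genes had 10 windows, so counts of genes and percentages of windows are in unlike units. These matches are descriptions of the letters and not binding sites.

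Levels were highest for the villin gene. By normalized count, Vil1 ranked 18th, Myo1a 35th, Ezr 40th, Cdhr2 48th, Pls1 53rd and Cdhr5 69th among the 14301 genes tested, while Myo7b ranked 159th, Eps8 413th, Ush1c 582nd and Espn 642nd. Together the 10 genes took 1.37% (Vil-Cre 3) to 1.69% (Vil-Cre:NDI1 5) of all normalized counts. Genes differ in length, so levels between them are compared here as normalized counts per kilobase of exon. On that scale, Vil1 stood at 11888 ± 1171 (SD, n = 10 mice), above Ezr in 10 of 10 mice by 0.70 ± 0.14 on the log2 scale (SD, n = 10). Ezr at 7351 ± 1264 and Myo1a at 7227 ± 972 followed (SD, n = 10), and Ezr was the higher in 6 of 10 mice, so these neighbours did not differ beyond their spread. Cdhr5 (5910 ± 654, SD, n = 10) was below Myo1a in 9 of 10 mice and above Pls1 in 10 of 10. Pls1 (5186 ± 500.4) and Cdhr2 (5142 ± 521, SD, n = 10) could not be separated, with Pls1 the higher in 6 of 10 mice. A step of 2.02 on the log2 scale then led down to Myo7b (1276 ± 167, SD, n = 10), which exceeded Ush1c (834 ± 58.2) in 10 of 10 mice. Espn (359 ± 52.8) and Eps8 (331 ± 36.6, SD, n = 10) were lowest and not separated, with Espn the higher in 7 of 10 mice. With the longest transcript as the length, Myo1a stood above Ezr and Eps8 above Espn, and the other 7 steps of the order held.

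Levels of 5 genes were set beside those of their tested paralogues, and 4 of the 5 exceeded all of these relatives. Of 21 listed paralogues, 16 passed the filter on low values, and Espnl, Cdh23, Cdhr1, Cdhr3 and Cdhr4 did not. Per kilobase of exon, Vil1 was 14.2 times its highest paralogue Gsn (gelsolin, which severs actin filaments) and 14.8 times Scin. Ezr was 166 times Msn (moesin) and 232 times Rdx (radixin), the other two members of its family of membrane linkers. Pls1 was 219 times Pls3 and 220 times Lcp1, the plastin of blood cells. With the longest transcript as the length, Ezr was 105 times Msn and Pls1 was 93.5 times Lcp1. Myo7b was 13.0 times Myo7a, the form of hair cells and retina. Eps8 was the exception, since its level was 0.104 times that of Eps8l3 and 0.281 times that of Eps8l2. Eps8l3 reached 3190 normalized counts per kilobase, and with the longest transcript as the length Eps8 was at 0.281 times Eps8l3. Eps8l3 shares 964 exonic bases with 4933431E20Rik on the opposite strand, and the sources used here do not state whether reads were counted by strand.

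**Figure D1:**
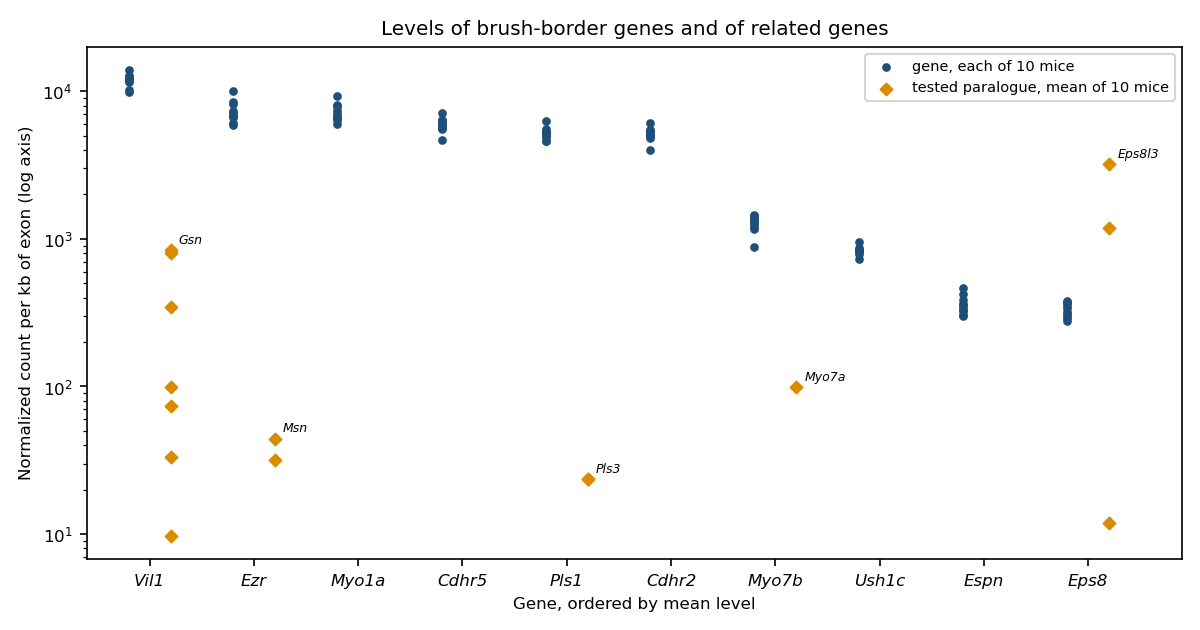
Normalized counts per kilobase of exon (log axis) of the 10 brush-border genes in each of 10 mice (blue points) and of the tested paralogues of 5 of them as means of 10 mice (orange diamonds, the highest paralogue named). Vil1 is highest, Myo7b, Ush1c, Espn and Eps8 lie below the other 6 genes, and of the 5 genes with paralogues shown only Eps8 lies below one.

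In 2 libraries the genes stood apart from the rest. Vil-Cre 5 was the lowest of the 10 libraries for 7 genes (Ezr, Eps8, Pls1, Cdhr2, Cdhr5, Ush1c and Myo7b), and Vil-Cre:NDI1 5 was the highest for 8 (all but Eps8 and Pls1). The median log2 deviation of the 10 genes from the mean of all mice was -0.23 in Vil-Cre 5 and 0.24 in Vil-Cre:NDI1 5, and it lay between -0.13 and 0.078 in the other 8 libraries. The summed normalized count of 13 enterocyte markers, among them the transporters Slc5a1 and Slc15a1, was 404886 in Vil-Cre 5, 819130 in Vil-Cre:NDI1 5 and 585089 to 684822 in the others, with no marker at 0. The median deviation of these markers was -0.63 in Vil-Cre 5 and 0.33 in Vil-Cre:NDI1 5. The 5 pan-epithelial markers summed to 96218 in Vil-Cre:NDI1 5, the highest of the 10 libraries, with Vil-Cre 2 next at 84788. In Vil-Cre 5 they summed to 75178, where the lowest library, Vil-Cre:NDI1 3, stood at 72925. Their median deviation was 0.24 in Vil-Cre:NDI1 5 and -0.014 in Vil-Cre 5. Vil-Cre:NDI1 5 also had the lowest sums of the 10 libraries for goblet (66119), crypt (2568), enteroendocrine (832) and T cell markers (531). The part of these differences in the results below was not tested. The genotype values and the relation with Vil1 are given below with and without both libraries, which were picked after these values were seen. Leaving out a low Vil-Cre and a high Vil-Cre:NDI1 library lowers a fold change by construction, so the values without both are a description. In bulk tissue, fewer cells of a type and less RNA per cell cannot be told apart.

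**Figure D2:**
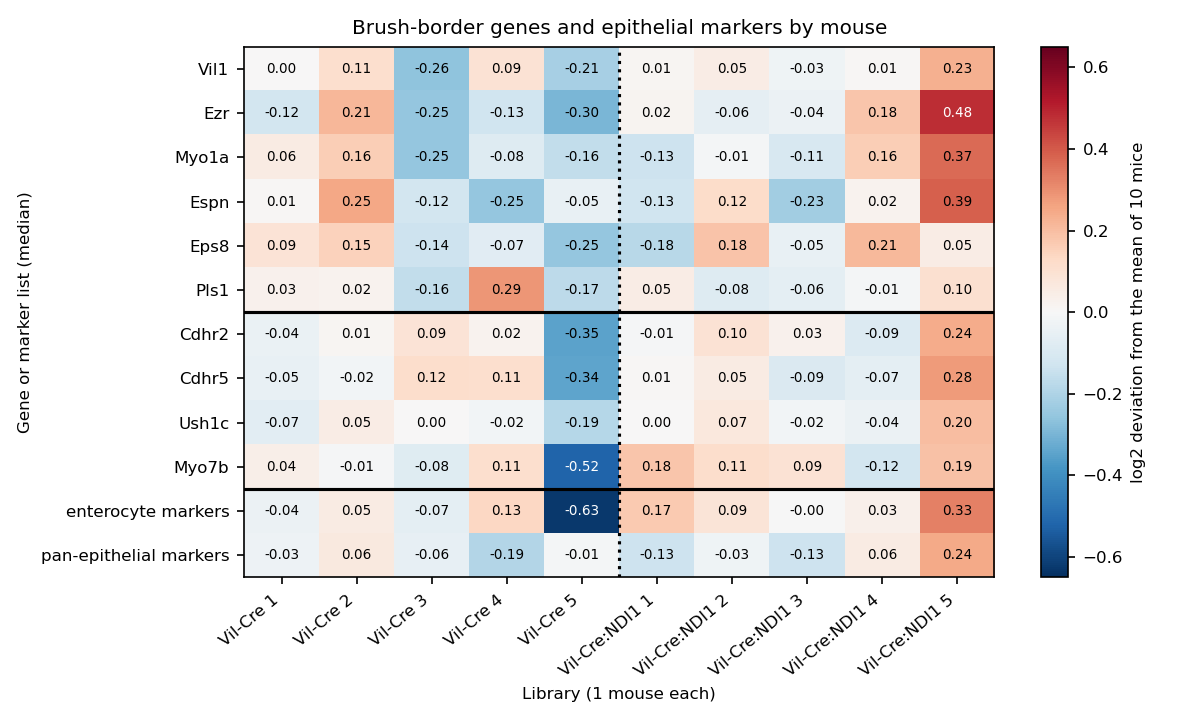
Deviation of log2(normalized count + 1) from the mean of 10 mice for each gene, and the median deviation of 13 enterocyte and 5 pan-epithelial markers, in each library (columns). Vil-Cre 5 is below the mean in every gene, from -0.52 for Myo7b to -0.050 for Espn, and at -0.63 for the enterocyte markers. Vil-Cre:NDI1 5 is above the mean in every gene, from 0.048 for Eps8 to 0.48 for Ezr, and at 0.33 for those markers.

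The comparison of Vil-Cre:NDI1 with Vil-Cre jejunum asked whether NDI1 in the epithelium changed these transcripts. With limma, 0 of the 10 genes passed an adjusted p of 0.05, where 0.00699% of all genes tested did, namely NDI1 itself. At an unadjusted p under 0.05 there were 0 of the 10 with limma, with DESeq2 and with edgeR, against 4.24% of all genes with limma. The share of all genes under that p with DESeq2 and edgeR is not given here. At an adjusted p of 0.05, DESeq2 passed 31 of all genes (16 higher, 15 lower) and edgeR passed 1. The values of both groups overlapped in all 10 genes, and 0.699% of all genes had groups that did not overlap. The lowest adjusted p was 0.998 with limma, 0.839 with DESeq2 and 0.997 with edgeR. The 95% confidence intervals together ran from -0.24 to 0.53 on the log2 scale, so a change below 0.848-fold or above 1.45-fold lay outside the interval of every one of the 10 genes in this fit. The intervals reached 0.658-fold with libraries scaled to equal enterocyte markers and 0.804-fold without Vil-Cre 5 and Vil-Cre:NDI1 5. The fold changes were positive for 9 of the 10 genes, with a median log2 fold change of 0.097 against 0.0052 over all genes, of which 51.2% were positive. With libraries scaled to equal enterocyte markers, 0 of the 10 were positive, and that scaling moved the median of all genes to -0.27 and that of the 10 genes to -0.18. Without Vil-Cre 5 and Vil-Cre:NDI1 5, 6 of the 10 were positive and the median of the 10 was 0.0096. These libraries were picked from the values of the same genes, so a shift downward was built in and tests nothing.

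**Figure D3:**
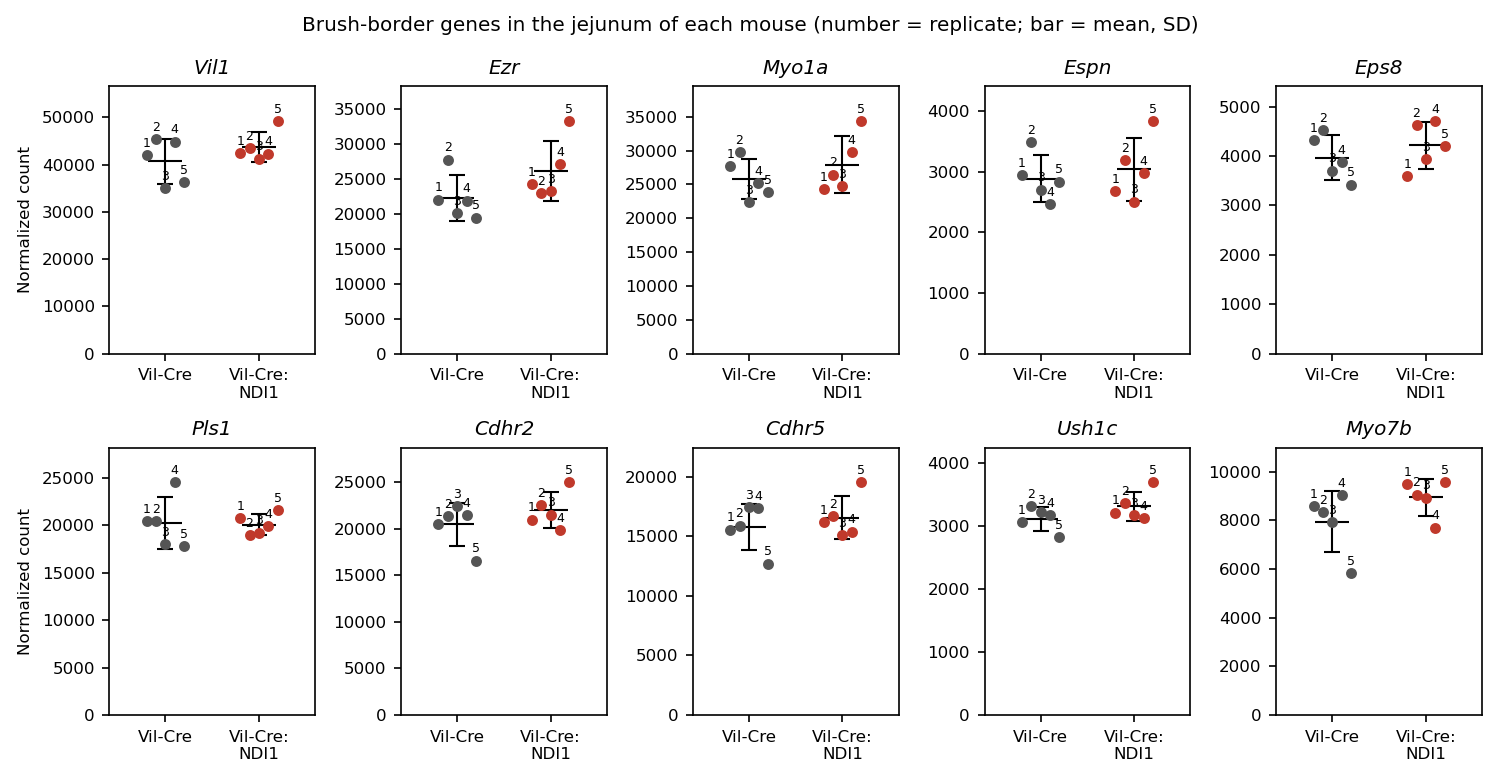
Normalized counts (linear axes from 0) of the 10 genes in 5 Vil-Cre (grey) and 5 Vil-Cre:NDI1 mice (red), with the replicate number beside each point and the mean and SD as bars. The groups overlap in every panel, and replicate 5 is the highest Vil-Cre:NDI1 point in 9 panels, the exception being Eps8.

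Among the proteins of the actin core, Vil1 encodes villin, which bundles actin filaments and severs them when calcium is high (ENSMUSG00000026175, GRCm38 chromosome 1, 74409376 to 74435559). Its normalized counts were 42034, 45369, 35067, 44843 and 36241 in Vil-Cre 1 to 5 and 42377, 43428, 41252, 42298 and 49249 in Vil-Cre:NDI1 1 to 5. Vil-Cre 3 and Vil-Cre 5 were lowest, Vil-Cre:NDI1 5 was highest, and the other 4 Vil-Cre:NDI1 values lay within the range of the Vil-Cre mice. The means were 40711 ± 4805 in Vil-Cre and 43721 ± 3185 in Vil-Cre:NDI1 mice (SD, n = 5), a log2 fold change of 0.11 with a standard error of 0.12 (95% confidence interval -0.15 to 0.37, two-sided exact permutation p = 0.262). The Villin-Cre transgene was present in both groups, so this comparison does not bear on it. Vil1 shares 49 exonic bases with Usp37 on the opposite strand.

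Pls1 encodes plastin 1 or fimbrin, which sets the tight spacing of filaments in the core (ENSMUSG00000049493, chromosome 9, 95752642 to 95845311). Its values were 20480, 20427, 18006, 24536 and 17844 in Vil-Cre 1 to 5 and 20740, 18947, 19231, 19925 and 21590 in Vil-Cre:NDI1 1 to 5. The Vil-Cre range enclosed that of the Vil-Cre:NDI1 mice, and the highest mouse, Vil-Cre 4, was the lowest for Espn. The means were 20259 ± 2705 and 20087 ± 1089 (SD, n = 5), with a log2 fold change of -0.0042 (standard error 0.11, 95% confidence interval -0.24 to 0.23, exact permutation p = 0.952).

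Espn encodes espin, a bundler that lengthens microvilli and is also needed in hair cells (ENSMUSG00000028943, chromosome 4, 152120331 to 152152371). Its values were 2949, 3492, 2706, 2465 and 2838 in Vil-Cre 1 to 5 and 2683, 3192, 2510, 2984 and 3842 in Vil-Cre:NDI1 1 to 5, and the groups overlapped over most of their range. The log2 fold change was 0.068 (standard error 0.13, 95% confidence interval -0.21 to 0.34, exact permutation p = 0.611).

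Eps8 encodes a capping and bundling protein at the tip of the core (ENSMUSG00000015766, chromosome 6, 137477245 to 137654876). Its values were 4324, 4516, 3702, 3868 and 3420 in Vil-Cre 1 to 5 and 3590, 4620, 3939, 4710 and 4203 in Vil-Cre:NDI1 1 to 5. Vil-Cre:NDI1 5 was not the highest of its group here, since replicates 2 and 4 were above it. The log2 fold change was 0.087 (standard error 0.10, 95% confidence interval -0.14 to 0.31, exact permutation p = 0.421).

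Of the proteins that tie the core to the membrane, Myo1a encodes the brush-border myosin I (ENSMUSG00000025401, chromosome 10, 127705170 to 127720940). Its values were 27686, 29756, 22410, 25146 and 23835 in Vil-Cre 1 to 5 and 24282, 26444, 24742, 29728 and 34396 in Vil-Cre:NDI1 1 to 5. Vil-Cre:NDI1 5 exceeded every other mouse, and Vil-Cre 2 was next. The means were 25767 ± 2957 and 27919 ± 4205 (SD, n = 5), with a log2 fold change of 0.11 (standard error 0.13, 95% confidence interval -0.17 to 0.39, exact permutation p = 0.397).

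Ezr encodes ezrin, which links actin to membrane proteins through scaffolds and is switched on by phosphorylation (ENSMUSG00000052397, chromosome 17, 6738041 to 6782784). Its values were 22009, 27724, 20055, 21860 and 19450 in Vil-Cre 1 to 5 and 24188, 22958, 23252, 27084 and 33283 in Vil-Cre:NDI1 1 to 5. Only Vil-Cre 2 among the Vil-Cre mice reached the range of the Vil-Cre:NDI1 mice. Ezr had the largest log2 fold change of the 10 genes, 0.23 (standard error 0.14, 95% confidence interval -0.067 to 0.53, exact permutation p = 0.119), from means of 22219 ± 3272 and 26153 ± 4307 (SD, n = 5). Its log2 fold change was 0.097 without Vil-Cre 5 and Vil-Cre:NDI1 5.

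The adhesion complex at the tips holds microvilli together through Cdhr2 and Cdhr5, a pair of protocadherins that bind each other across the gap. Cdhr2 (ENSMUSG00000034918, chromosome 13, 54701461 to 54736662) had values of 20490, 21341, 22471, 21489 and 16588 in Vil-Cre 1 to 5 and 20999, 22568, 21507, 19858 and 24992 in Vil-Cre:NDI1 1 to 5. Cdhr5 (ENSMUSG00000025497, chromosome 7, 141269083 to 141276786) had values of 15566, 15883, 17437, 17374 and 12708 in Vil-Cre 1 to 5 and 16189, 16712, 15085, 15385 and 19528 in Vil-Cre:NDI1 1 to 5. For both genes Vil-Cre 5 was lowest and Vil-Cre:NDI1 5 highest, and the other 8 mice lay close together. The log2 fold change was 0.11 for Cdhr2 (standard error 0.11, 95% confidence interval -0.13 to 0.35, exact permutation p = 0.341). For Cdhr5 it was 0.073 (standard error 0.11, 95% confidence interval -0.18 to 0.32, exact permutation p = 0.540).

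Ush1c encodes harmonin, the scaffold that holds the tails of both protocadherins (ENSMUSG00000030838, chromosome 7, 46195350 to 46238503). Its values were 3059, 3308, 3212, 3164 and 2813 in Vil-Cre 1 to 5 and 3206, 3362, 3167, 3123 and 3686 in Vil-Cre:NDI1 1 to 5. It was the steadiest of the 10 genes, with a coefficient of variation of 6.98% over the 10 mice, where Ezr had the largest at 17.2%. The log2 fold change was 0.088 (standard error 0.075, 95% confidence interval -0.076 to 0.25, exact permutation p = 0.190). Ush1c shares 120 exonic bases with Gm9860 on the opposite strand.

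Myo7b encodes the motor that carries the complex to the tips (ENSMUSG00000024388). Its values were 8593, 8340, 7942, 9036 and 5827 in Vil-Cre 1 to 5 and 9482, 9064, 8937, 7698 and 9564 in Vil-Cre:NDI1 1 to 5. Vil-Cre 5 lay far below every other mouse, and 3 of the 5 Vil-Cre:NDI1 mice were above all Vil-Cre mice. The means were 7948 ± 1250 and 8949 ± 748 (SD, n = 5), with a log2 fold change of 0.18 (standard error 0.12, 95% confidence interval -0.085 to 0.45, exact permutation p = 0.151). Without Vil-Cre 5 and Vil-Cre:NDI1 5 the log2 fold change of Myo7b was 0.050, and those of Vil1 and Myo1a were 0.025 and 0.0062. In the same 8 mice they were -0.074 for Pls1, -0.025 for Espn, 0.034 for Eps8, -0.015 for Cdhr2, -0.064 for Cdhr5 and 0.013 for Ush1c.

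The other listed proteins of the brush border gave the same result with limma. Of the core and tip partners, 0 of 9 passed an adjusted p of 0.05 in either direction, with a median log2 fold change of 0.011. Actb, cytoplasmic actin, had means of 51026 ± 7604 and 56704 ± 13291 normalized counts in the Vil-Cre and Vil-Cre:NDI1 groups (SD, n = 5), with a log2 fold change of 0.14 that was -0.019 without Vil-Cre 5 and Vil-Cre:NDI1 5. The 2 genes of the list with the smallest p were Baiap2l1, a membrane-bending actin regulator (log2 fold change -0.30, adjusted p = 0.998), and Twf2, twinfilin 2 (-0.54, adjusted p = 0.998). In the 8 mice without those libraries they were at -0.34 and -0.36.

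Of the motor and linker partners, 0 of 11 passed (median 0.073). These include the scaffolds that bind ezrin, Slc9a3r1 (NHERF1) with a log2 fold change of 0.19 and Pdzk1 with 0.11. Without Vil-Cre 5 and Vil-Cre:NDI1 5 these values were 0.0023 for Slc9a3r1 and -0.17 for Pdzk1. Of the exonic bases of Pdzk1, 1333 are shared with Gpr89 on the opposite strand. The smallest p in this list belonged to kinases, Stk10, which phosphorylates ezrin (log2 fold change 0.34, adjusted p = 0.998), and Stk26 (-0.81, adjusted p = 0.998), the latter at 2.35 to 21.4 normalized counts. Without both libraries they were at 0.16 and -0.33.

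Of the adhesion complex partners, 0 of 2 passed. Anks4b, the ankyrin-repeat scaffold that binds harmonin and Myo7b, stood at 1520, 1402, 1419, 1434 and 1286 in Vil-Cre 1 to 5 and at 1578, 1570, 1516, 1808 and 2007 in Vil-Cre:NDI1 1 to 5. Only Vil-Cre 1 among the Vil-Cre mice reached the range of the Vil-Cre:NDI1 mice. The log2 fold change of Anks4b was 0.26 (standard error 0.091, exact permutation p = 0.0159), the adjusted p with limma was 0.998, and without Vil-Cre 5 and Vil-Cre:NDI1 5 the log2 fold change was 0.16. Calml4, the calmodulin-like light chain of Myo7b, had a log2 fold change of 0.078, and of -0.043 without both libraries. Of 11 genes of the terminal web, the actin, spectrin and keratin layer under the microvilli, 0 passed (median 0.059), and the smallest p belonged to Lima1 (0.15, adjusted p = 0.998) and Sptan1 (0.22, adjusted p = 0.998), at 0.080 and 0.25 without both libraries.

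Of the 16 tested paralogues, 0 passed the adjusted threshold, 6 had a positive log2 fold change, and the median was -0.11. At an unadjusted p under 0.05 with limma, 1 was higher and 1 lower in Vil-Cre:NDI1 mice, where 4.24% of all genes were under it. Eps8l3, the paralogue above Eps8 in level, had 6698, 6557, 7193, 6930 and 4989 normalized counts in Vil-Cre 1 to 5 and 7597, 7615, 7450, 7680 and 9734 in Vil-Cre:NDI1 1 to 5. Its groups did not overlap, as in 0.699% of all genes (log2 fold change 0.31, standard error 0.12, exact permutation p = 0.00794, the smallest that 5 against 5 mice can give, adjusted p = 0.998 with limma). The log2 fold change of Eps8l3 was 0.15 without Vil-Cre 5 and Vil-Cre:NDI1 5. The 13 enterocyte markers were all positive with a median log2 fold change of 0.24, and 0 of them passed, the smallest p belonging to Slc5a1 (0.30, adjusted p = 0.998) and Slc15a1 (0.34, adjusted p = 0.998). Without Vil-Cre 5 and Vil-Cre:NDI1 5, 9 of the 13 were positive with a median of 0.079, and Slc5a1 and Slc15a1 were at 0.12 and 0.091. When libraries were scaled to equal enterocyte markers, that direction could not be read because the scaling sets their mean log2 value.

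**Figure D4:**
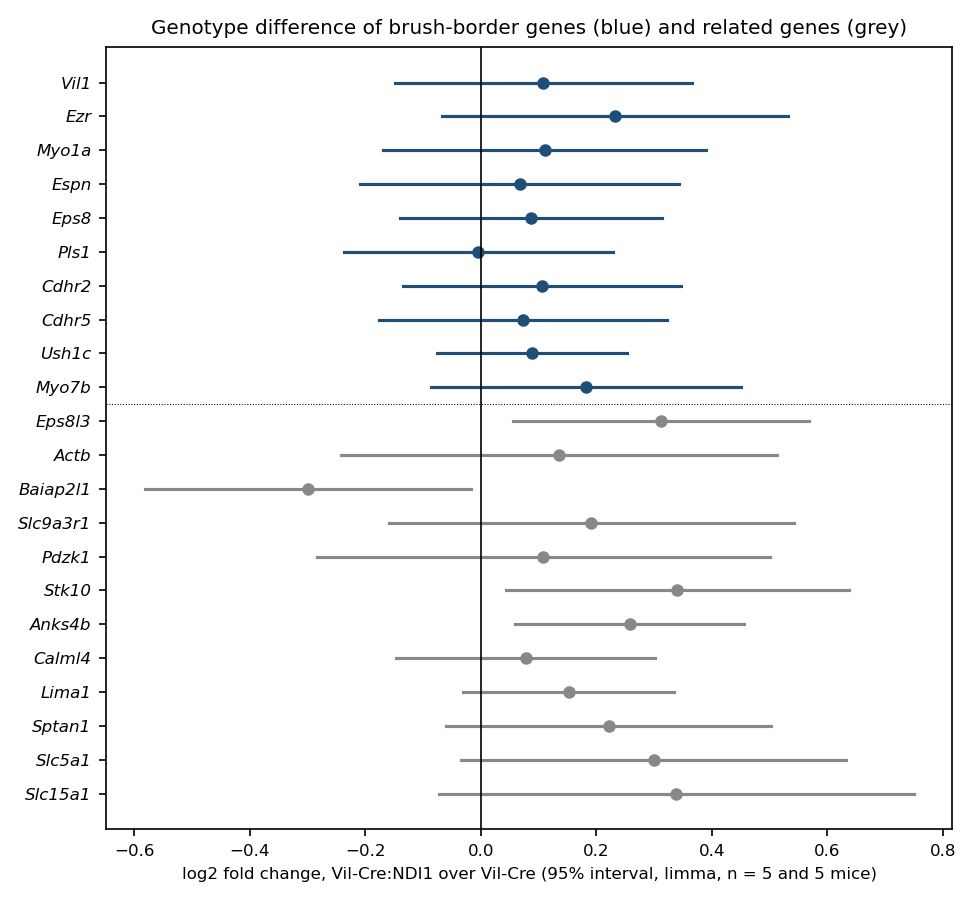
Log2 fold change of Vil-Cre:NDI1 over Vil-Cre (points) with the 95% confidence interval from limma (lines, n = 5 and 5 mice) for the 10 genes (blue) and 12 related genes (grey). All 10 blue intervals cross 0. In 9 of 10 the point is positive, and 0 of 10 are positive when libraries are scaled to equal enterocyte markers.

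Variation between mice gave a further pattern. Over 10 mice, Pearson's r of log2 values ranged from 0.76 to 0.94 in the 6 pairs among the adhesion genes Cdhr2, Cdhr5, Ush1c and Myo7b, with a median of 0.87. Spearman's rho in these pairs ranged from 0.60 to 0.85. In the 15 pairs among Vil1, Pls1, Espn, Eps8, Myo1a and Ezr, r ranged from -0.0058 to 0.90 with a median of 0.57, and the highest was Ezr with Myo1a. In the 24 pairs between both sets, r ranged from 0.12 to 0.77 with a median of 0.47. These values are given as a description, with no test, since all points share their library and its size factor.

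These values changed when the 2 libraries that stood apart were left out. For the adhesion genes these were the lowest and the highest library, so leaving them out narrows the range and can lower r. Without Vil-Cre 5 and Vil-Cre:NDI1 5, over 8 mice, the adhesion pairs ranged from 0.10 to 0.69 with a median of 0.32. The pairs among the other 6 genes ranged from -0.30 to 0.87 with a median of 0.58, and Ezr with Myo1a was at 0.80. Vil-Cre:NDI1 5 was also the highest library for Vil1, Espn, Myo1a and Ezr, so the range narrows for these genes too. By Spearman's rho, the median in these pairs was 0.58 over 10 mice and 0.45 over 8. In the adhesion pairs the median rho was 0.68 over 10 mice and 0.38 over 8. The pairs between both sets had a median of -0.27, and 7 of 24 were positive where 24 of 24 had been positive over 10 mice. With libraries set to equal totals, the medians over 10 mice were 0.70 for the adhesion genes, 0.43 for the others and 0.12 across.

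**Figure D5:**
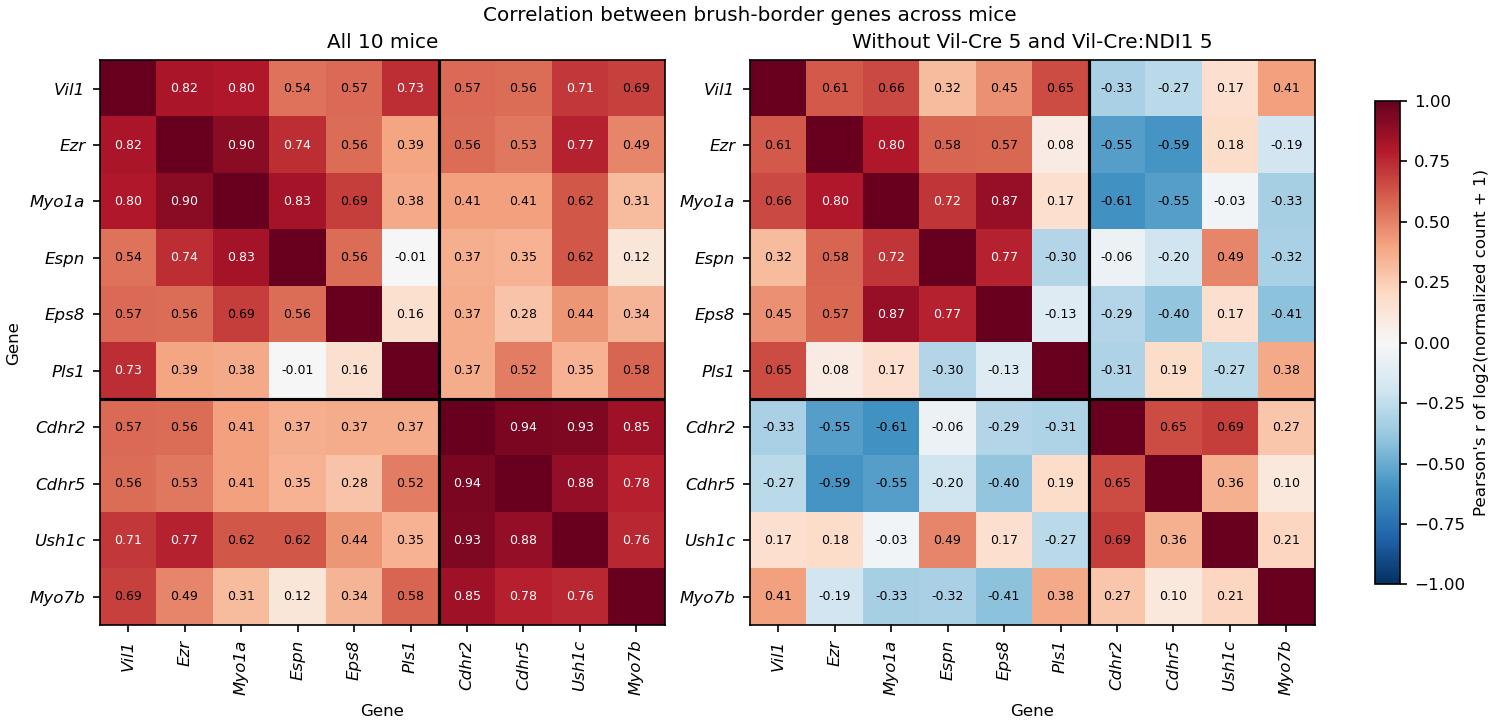
Pearson's r between the 10 genes over all 10 mice (left) and over 8 mice without Vil-Cre 5 and Vil-Cre:NDI1 5 (right), on a colour scale from -1 to 1, with the 4 adhesion genes set off by lines. The adhesion block falls from 0.76 to 0.94 on the left to 0.10 to 0.69 on the right, and the block across turns mostly negative.

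The relation of the other 9 genes with Vil1 was tested across all genes with a limma regression on log2 Vil1, and 0 of 9 passed an adjusted p of 0.05, where 0% of the 14300 other genes tested passed. At an unadjusted p under 0.05, Ezr, Myo1a and Myo7b, 3 of 9, rose with Vil1, as did 3.97% of all genes. The correlation with Vil1 was strongest for Ezr (r = 0.82, permutation p = 0.00432, rho = 0.70, permutation p = 0.0293, adjusted p = 0.562 with limma) and Myo1a (r = 0.80, permutation p = 0.00523, rho = 0.77, permutation p = 0.0122, adjusted p = 0.579 with limma). Without the 2 mice farthest from the median of Vil1, Vil-Cre 3 and Vil-Cre 5, r was 0.73 for both. For Pls1 r was 0.73 (permutation p = 0.0173, rho = 0.72, permutation p = 0.0239, adjusted p = 0.662 with limma), and it fell to 0.47 without those mice.

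Among the adhesion genes, r with Vil1 was 0.71 for Ush1c (permutation p = 0.0263, rho = 0.58, permutation p = 0.0889, adjusted p = 0.684 with limma) and 0.86 without the same 2 mice. For Myo7b it was 0.69 (permutation p = 0.0321, rho = 0.64, permutation p = 0.0547, adjusted p = 0.615 with limma) and 0.37 without them. Cdhr2, Eps8, Cdhr5 and Espn had r from 0.54 to 0.57, permutation p from 0.0900 to 0.105, rho from 0.37 to 0.48 (permutation p from 0.166 to 0.295) and adjusted p with limma from 0.708 to 0.763. Without the same 2 mice their r ran from 0.097 for Eps8 to 0.90 for Cdhr5. With the mean of each genotype removed, r with Vil1 ran from 0.50 for Cdhr2 to 0.81 for Pls1. Without Vil-Cre 5 and Vil-Cre:NDI1 5, r with Vil1 was 0.66 for Myo1a, 0.65 for Pls1, 0.61 for Ezr, 0.45 for Eps8, 0.41 for Myo7b, 0.32 for Espn, 0.17 for Ush1c, -0.27 for Cdhr5 and -0.33 for Cdhr2. With libraries scaled to equal enterocyte markers, 6 of 9 passed the adjusted threshold, as did 43.1% of all genes under that scaling, which divides every gene of a library, Vil1 included, by 1 shared factor. Over all genes tested, r with Vil1 had a median of -0.0017 and lay between -0.58 and 0.61 for all but the lowest and highest 5%.

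The genes outside the lists most like Vil1 over 10 mice, by Pearson's r, were Clec2h (0.97), Traf3ip2 (0.94), Ppp3r1 (0.93), Mpp1 (0.91) and Eci1 (0.91). Clec2h, a C-type lectin gene, ranged from 14903 to 24154 normalized counts, and its r was 0.95 without Vil-Cre 5 and Vil-Cre:NDI1 5. For the other 4 genes r without both libraries ranged from 0.81 to 0.88. They were picked as the highest of 14300, so these values carry no test.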

How the data were processed

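RNA from jejunum was sequenced as single-end reads. The authors used the nf-core/rnaseq pipeline, with trimGalore! for trimming, STAR for alignment to GRCm38 plus NDI1 and Salmon for gene counts. The deposited values are a signal, gene counts divided by DESeq2 size factors, and 100% of those above 0 came out as whole reads (tolerance 0.0001). For Vil-Cre 3 and Vil-Cre 4 that value is so near 1 that rounding cannot be told apart. The annotation release and strand setting are not given in the sources used here. Replicates are separate mice, and no pair of libraries of the same genotype agreed within sampling noise.

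Genotypes were compared on log2(value + 1) by limma 3.58.1 (R 4.3.3) with a variance trend. Genes needed a value of 10 or more in 5 or more mice, and p-values were adjusted over all of them by Benjamini-Hochberg, with a threshold of 0.05. Fold changes on this scale understate those of low genes. Exact permutation tests were two-sided over all 252 assignments of mice, and correlations used 100000 resamples. As alternatives, the recovered reads were tested with DESeq2 1.42.0 and edgeR 4.0.16, and pseudocounts of 0.1 and 8, other filters and scalings, array weights, a replicate block and each mouse left out were tried. Exon lengths and positions came from GENCODE M21. The scripts were tested on simulated data. Named genes are the 10, the 2 with the smallest p in each partner list (both adhesion partners), Actb, Slc9a3r1 and Pdzk1, the highest paralogue of 5 of them, the 5 genes most like Vil1, NDI1 and 2 enterocyte markers. Scin, Rdx, Lcp1 and Eps8l2 were named after their values were seen. Another gene under this rule is left out of the text. The genes and lists were chosen with earlier results of these data known.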

Additional observations from a re-analysis of the deposited data

Results flagged for a closer look

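A sample was set aside for a closer look where its gap to the nearest other mouse of its genotype, divided by the range of the 5 mice, exceeded Dixon's critical value of 0.71. Of 67 groups of 5 tested, 7 did, where chance gives about 1 in 20 (3.35) for independent groups. These groups share the same libraries and some genes were picked from these data, so the counts are no test against chance. Vil-Cre:NDI1 5 was high for Vil1 (49249 normalized counts, the others 41252 to 43428), for Pdzk1 (7068, the others 4394 to 4745), for Eps8l3 (9734, the others 7450 to 7680) and for Clec2h (24154, the others 18932 to 20186). Vil-Cre 5 was low for Slc5a1 (27464, the others 40962 to 45819) and Eps8l3 (4989, the others 6557 to 7193) and high for Msn (586, the others 231 to 278).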

How the results depend on the processing

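Under every alternative, leave-one-out included, 0 of the 10 genes and 0 of the 33 partners passed the genotype test. Over all genes the count of 1 became 2 with a minimum value of 50, with array weights and without Vil-Cre 5 and Vil-Cre:NDI1 5 (chosen after seeing the data), 31 with DESeq2 (16 higher, 15 lower), and 1 to 3 with each mouse left out (3 without Vil-Cre:NDI1 5, 2 without Vil-Cre:NDI1 1 or 2). The replicate block gave 1 gene and 0 of the 10. Same-numbered mice correlated from -0.12 to 0.14, and 1 of 5 numbers correlated best with its own. That check cannot tell whether same-numbered mice shared more than a number. The relation with Vil1 rose from 0 to 6 of 9 when libraries were scaled to equal enterocyte markers, under which 43.1% of all genes passed. That scaling turned Vil1 to -0.17, Ezr -0.047, Myo1a -0.17, Espn -0.21, Eps8 -0.19, Cdhr2 -0.17, Cdhr5 -0.21, Ush1c -0.19, Myo7b -0.096, Anks4b -0.021, Calml4 -0.20, Lima1 -0.13, Sptan1 -0.057, Actb -0.14, Slc9a3r1 -0.087, Pdzk1 -0.17, Gsn -0.27, Myo7a -0.090, Clec2h -0.14, Ppp3r1 -0.14, Mpp1 -0.0085 and Eci1 -0.20 (log2). Gsn, at 0.014, was -0.049 with equal totals, -0.051 with array weights, -0.041 with DESeq2 and -0.054 with edgeR. Without both libraries Espn was -0.025, Cdhr2 -0.015, Cdhr5 -0.064, Calml4 -0.043, Actb -0.019, Pdzk1 -0.17 and Eci1 -0.024, and the slopes on Vil1 of Cdhr2 and Cdhr5 were -0.18 and -0.19. With each mouse left out, direction turned for Pls1 (-0.047 to 0.067), Gsn (-0.22 to 0.14), Cdhr5 (-0.0030 to 0.11), Calml4 (-0.0090 to 0.12), Pdzk1 (-0.038 to 0.17) and Espn (-0.021 to 0.14). The causes were not tested.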
